A study of Mus musculus with 4 samples.

Results

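*Taar2*, *Taar3*, *Taar4*, *Taar5*, *Taar6*, and *Taar9* are the olfactory trace amine-associated receptor genes that have 1 copy each, outside the multicopy *Taar7* and *Taar8* groups. They were chosen by name and make up 6 of the 14 olfactory *Taar* genes and 6 of the 24421 genes of the expression table. The data are RNA-seq libraries of cells sorted by FACS (fluorescence-activated cell sorting) from the main olfactory epithelium (MOE) of transgenic mice, whose strain the labels give as C57BL/6. A copy of TAAR enhancer 1 drives GFP in the TAAR enhancer 1-GFP line (enhancer 1 line), and a copy of TAAR enhancer 2 drives the red fluorescent protein tdTomato in the TAAR enhancer 2-tdTomato line (enhancer 2 line). Reporter-positive and reporter-negative cells of each line gave 1 library per group, so there were 4 libraries, no replicates, and no test of any difference.

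Each reporter transgene sits behind the minimal promoter of mouse Hsp68 and was inserted with PiggyBac, and 1 founder line was kept for each enhancer. All 4 groups still carry the endogenous *Taar* cluster with both of its enhancers. The labels describe adult mice, whereas the reporting summary of the study gives juvenile ages and both sexes for these lines and mixed backgrounds for the mouse lines of the study, with a wider age range for the enhancer 2 line. Mice of 1 genotype were grouped for the sort. The enhancer, the reporter, the founder line, and the sort all differed between the lines, so their contributions to a difference between lines cannot be told apart.

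TAARs are G protein-coupled receptors for volatile amines, and each olfactory sensory neuron (OSN) expresses 1 receptor gene from either the *Taar* or the much larger odorant receptor (*OR*, mouse symbol *Olfr*) repertoire. *Taar2*, *Taar3*, and *Taar4* belong to the branch of the family whose known ligands are mainly primary amines, such as isoamylamine for TAAR3 and phenylethylamine for TAAR4. *Taar5*, *Taar6*, and *Taar9* belong to the branch that tends to detect tertiary amines, of which the trimethylamine receptor TAAR5 is the best known. In the MOE, TAAR OSNs lie mostly in the dorsal zone, while *Taar6* is expressed more ventrally. Receptor enhancers act together with LHX2, EBF, and LDB1 proteins in OSNs.

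The 6 genes lie on chromosome 10 in the GENCODE M21 annotation of GRCm38 (mm10). *Taar2* (23938572 to 23941583, plus strand) has 2 exons, and each of the other genes has 1. *Taar3* runs from 23949558 to 23950589, *Taar4* from 23960494 to 23961537, and *Taar5* from 23970706 to 23971719, all on the plus strand. *Taar6* (23984609 to 23985646) and *Taar9* (24108488 to 24109534) are on the minus strand. *Taar2*, *Taar3*, *Taar4*, *Taar5*, and *Taar6* therefore lie between the endogenous enhancers, while *Taar9* lies beyond enhancer 2, on the far side of all *Taar7* and *Taar8* genes. These gene models hold coding sequence and the stop codon only, so their first base is the start codon, and reads from untranslated exons would be missed if the same models were used for quantification.

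The amount of sequence that a gene shares with its relatives sets how securely reads can be assigned to it. No 31-base window of *Taar2*, *Taar3*, *Taar4*, or *Taar5* occurs in the transcript of another gene. *Taar9* shares 1 of 1017 such windows, with *Taar7d*, and *Taar6* shares 42 of 1008 (4.17%), with *Taar7* and *Taar8* genes. For comparison, the shared percentage was 49.3% in *Taar7d*, the lowest of the *Taar7* and *Taar8* genes, and 80.3% in *Taar8c*, the highest. *Taar6* is thus the member whose reads are least securely its own.

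The longest run that *Taar6* has in common with another gene is 50 bases of *Taar8a*, while *Taar2* has no run over 17 bases. The first 30 bases of the *Taar6* run are printed 5′ to 3′ on the coding strand, from GENCODE M21 transcripts, with the same alignment columns in *Taar8a* and the other members. Capitals mark bases that differ from *Taar6*.
*Taar6* (exon 1, chr10:23985233-23985262, minus strand): gacaggtacatcgctgtcacggaccctctg
*Taar8a* (exon 1, chr10:24076881-24076910, plus strand): gacaggtacatcgctgtcacggaccctctg
*Taar9* (exon 1, chr10:24109121-24109150, minus strand): gacCggtacatTgcAgtTacAgaTccActg
*Taar5* (exon 1, chr10:23971096-23971125, plus strand): gacCgTCaTTGTgcCAtcTGTgacccCctg
*Taar4* (exon 1, chr10:23960881-23960910, plus strand): gacCgCCacTATgcCgtcTGCgaccctTtg
*Taar3* (exon 1, chr10:23949939-23949968, plus strand): gacCggtTTTATgcAgtGTGTgaccctTtg
*Taar2* (exon 2, chr10:23940945-23940974, plus strand): gaTagAtTTTATgcCAtcTGTCaccctTtg
Over the whole run, *Taar9* differed from *Taar6* at 10 positions, *Taar5* at 15, *Taar4* at 19, *Taar3* at 20, and *Taar2* at 22. Over the full coding alignment *Taar6* was 78.2% identical to *Taar8a* and 68.7% identical to *Taar9*. The closest members were *Taar6* and *Taar9*, followed by *Taar2* and *Taar3* at 65.2% identity. A read of 50 bases or fewer that lies within this 50-base run of *Taar6* could therefore also be a *Taar8a* read. The nearest other member, *Taar9*, differs from *Taar6* at 7 of the 30 printed positions. At 50 bases, 1 of 989 windows of *Taar6* (0.101%) was shared, against 29.5% in *Taar7d* and 72.5% in *Taar8c*.

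Expression levels are given as TPM, a unit that divides reads by gene length and scales each library to a total of 1000000, so levels of different genes can be compared within a library. The number of reads is not in the table, the depth is unknown, and no interval or detection limit can be given. The 10 highest genes took 31.5% of the GFP-positive library and between 5.72% and 9.44% of the others. An exact 0 may be a failed estimate, since *Hba-a1*, *Hba-a2*, *Hbb-bs*, and *Hbb-bt*, which encode haemoglobin chains, were listed at 0 in all 4 libraries. Such genes are therefore said to be listed at 0, and no ratio is given against them. A difference in log2(TPM + 1) from a value of 0 depends on the added 1, the pseudocount. In bulk samples, fewer cells of a type and less RNA per cell cannot be told apart.

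In the enhancer 1 line, the summed level of the 6 genes was 38.7 TPM without and 283.6 TPM with GFP, or 7.32-fold higher in GFP-positive cells (log2 ratio 2.87). In the enhancer 2 line, the sum was 0.262 TPM without and 2629 TPM with tdTomato (log2 ratio 13.29). The denominator of the second ratio holds only the values of *Taar6* and *Taar9*, 0.0659 and 0.196 TPM, so the size of that ratio is poorly fixed. The sum in tdTomato-positive cells was 9.27 times that in GFP-positive cells.

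Among the genes of the branch that detects primary amines, *Taar2* had the highest level. It was at 14.1 and 95.2 TPM in GFP-negative and GFP-positive cells, respectively, and was listed at 0 in tdTomato-negative cells but at 483.5 TPM in tdTomato-positive cells. Both reporter-positive libraries were above both reporter-negative ones, with a difference of 2.67 in log2(TPM + 1) in the enhancer 1 line and 8.92 in the enhancer 2 line. The latter was 12.24 with a pseudocount of 0.1 and 5.63 with one of 10. *Taar3*, the isoamylamine receptor gene, was 7.03, 10.4, 0, and 260.7 TPM in the same order of libraries. Its difference of 0.51 in the enhancer 1 line was below 2-fold and the smallest of the 6 genes, whereas in the enhancer 2 line it was 8.03. *Taar4*, the phenylethylamine receptor gene, was 8.65, 30.1, 0, and 377.1 TPM, with differences of 1.69 and 8.56. All 3 genes of this branch were detected in GFP-negative cells and listed at 0 in tdTomato-negative cells.

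Among the genes of the other branch, the trimethylamine receptor gene *Taar5* was at 4.26 and 14.8 TPM in GFP-negative and GFP-positive cells, respectively, and was listed at 0 in tdTomato-negative cells but at 372.6 TPM in tdTomato-positive cells. Its differences were 1.58 and 8.55 in log2(TPM + 1), close to those of its upstream neighbour *Taar4*. *Taar6* was 4.71, 51.6, 0.0659, and 112.0 TPM in the same order. Of the 6 genes it had the largest difference in the enhancer 1 line after *Taar9* (3.20) and the smallest in the enhancer 2 line (6.73). *Taar9* was listed at 0 in GFP-negative cells and was 81.5, 0.196, and 1023 TPM in the other libraries, in the same order. It was the 1 member listed at 0 in GFP-negative cells, and its differences of 6.37 and 9.74 were the largest of the 6 in each line at a pseudocount of 1. With a pseudocount of 0.1 its difference in the enhancer 2 line was 11.76, below those of *Taar2* (12.24), *Taar4* (11.88), and *Taar5* (11.86).

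**Figure D1:**
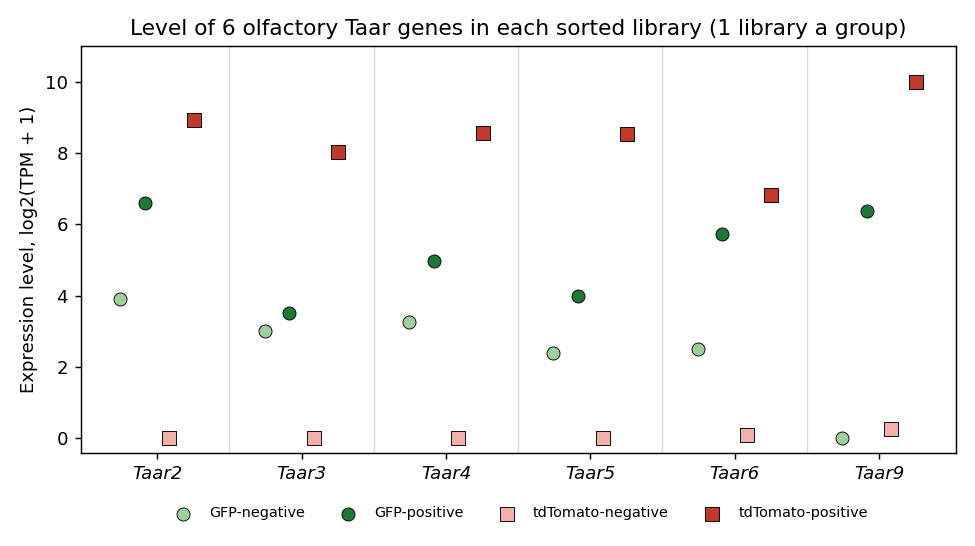
Level of each of the 6 genes as log2(TPM + 1) in the 4 libraries, 1 point per library (circles, enhancer 1 line, and squares, enhancer 2 line, with the darker symbol for reporter-positive cells). The tdTomato-positive point is the highest for every gene, and the GFP-negative and GFP-positive points lie closest together for *Taar3*, at 7.03 and 10.4 TPM.

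These differences were read against all genes above 0 in either library of a line. In the enhancer 1 line, 5 of the 6 genes were at least 2-fold higher in GFP-positive cells, against 12.8% of 17963 genes. At least 4-fold higher were 3 of the 6 (*Taar2*, *Taar6*, and *Taar9*), against 6.63% of all genes. The median difference was 2.18 for the 6 genes and -0.74 for all genes, and *Taar3* was at the 81.6th percentile and *Taar9* at the 99.9th.

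In the enhancer 2 line, all 6 genes were at least 2-fold higher in tdTomato-positive cells, against 16.2% of 16752 genes. All 6 were also at least 4-fold higher, against 7.72% of all genes. The median difference was 8.55 for the 6 genes and -0.19 for all genes. At a pseudocount of 1, no gene had a larger difference than *Taar9* in this line, 2 had a larger one than *Taar2*, and 45 had a larger one than *Taar6*. These ranks rest on reporter-negative values at or near 0, and with a pseudocount of 0.1 *Taar2*, *Taar4*, and *Taar5* were above *Taar9*.

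**Figure D2:**
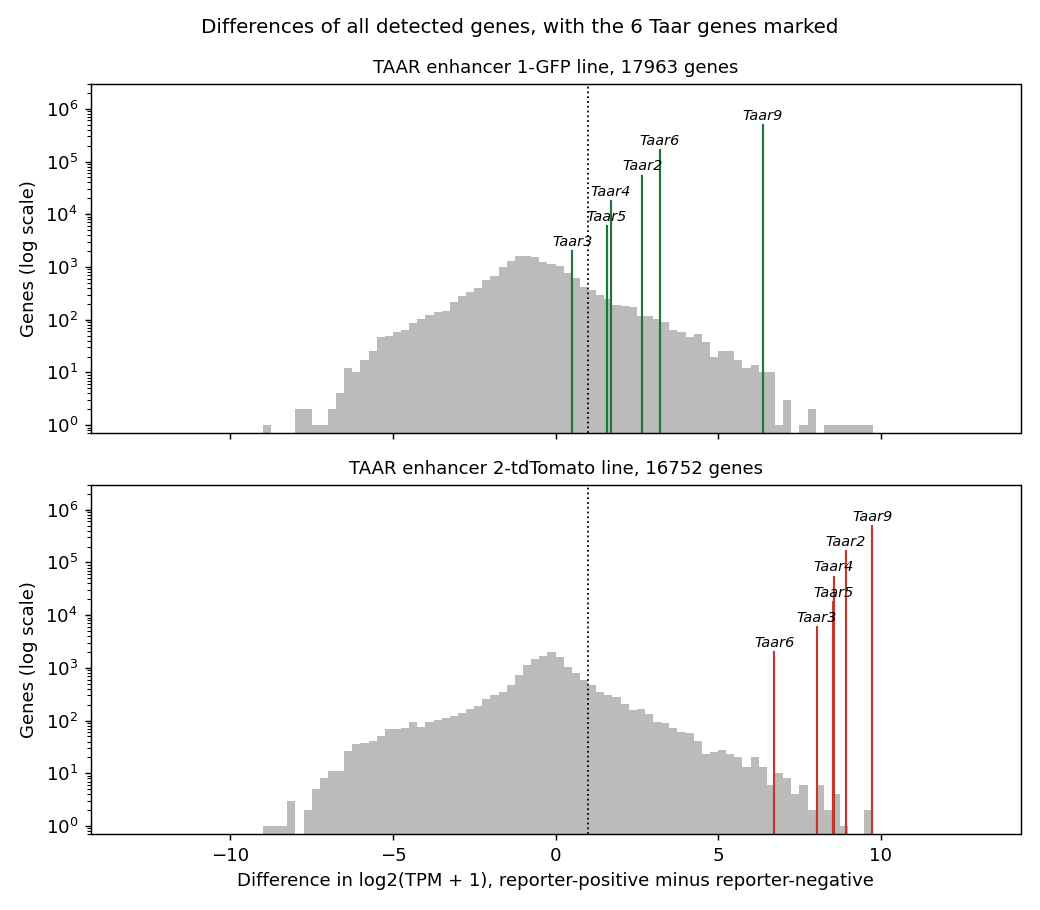
Histogram of the difference in log2(TPM + 1), reporter-positive minus reporter-negative, over all genes above 0 in either library of each line (17963 and 16752 genes, logarithmic vertical axis), with a coloured line at each of the 6 genes and a dotted line at a 2-fold difference. In the enhancer 1 line the 6 genes are spread from 0.51 to 6.37, and in the enhancer 2 line they are at the upper end, from 6.73 to 9.74.

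The differences depend on how libraries are made comparable. The log2 ratio of the 6-gene sum was 3.76 with median-ratio scaling in the enhancer 1 line and 13.45 in the enhancer 2 line. It was 5.95 and 14.31 with scaling to the same level of 12 mature OSN marker genes, and 3.38 and 13.35 after removal of the most abundant genes. These scalings shifted the log2 ratio of every gene in the enhancer 1 line by 0.88, 3.08, and 0.51, and in the enhancer 2 line by 0.16, 1.02, and 0.05. Differences in log2(TPM + 1) moved by other amounts because of the pseudocount, and that of *Taar2* in the enhancer 2 line, 8.92, was 8.77, 8.84, and 9.09 in the same order. Under the first and second scalings *Taar3* was also over 2-fold higher in GFP-positive cells, with differences of 1.31 and 3.33, and 6 of 6 genes then passed in that line. No scaling tried put any member lower in reporter-positive cells.

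Shares of the 6-gene sum do not depend on the scaling of libraries. In GFP-positive cells *Taar2* made up 33.6% of the sum, *Taar9* 28.7%, *Taar6* 18.2%, *Taar4* 10.6%, *Taar5* 5.21%, and *Taar3* 3.68%. In tdTomato-positive cells *Taar9* made up 38.9%, *Taar2* 18.4%, *Taar4* 14.3%, *Taar5* 14.2%, *Taar3* 9.92%, and *Taar6* 4.26%. *Taar2* and *Taar9* thus led in both libraries, in opposite order, while *Taar6* was the third in GFP-positive cells and the last in tdTomato-positive cells. *Taar4* and *Taar5* were 377.1 and 372.6 TPM in tdTomato-positive cells, and without replicates the order of such neighbours cannot be judged.

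The spread among the members was alike in size, with a highest level 9.12 times the lowest in the GFP-positive library and 9.14 times in the tdTomato-positive library. *Taar2*, *Taar3*, and *Taar4* together held 47.9% of the sum in GFP-positive and 42.6% in tdTomato-positive cells. In GFP-negative cells, where *Taar9* was listed at 0, these 3 genes held 76.9%. Shares in tdTomato-negative cells rest on 0.262 TPM in all and are not described.

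**Figure D3:**
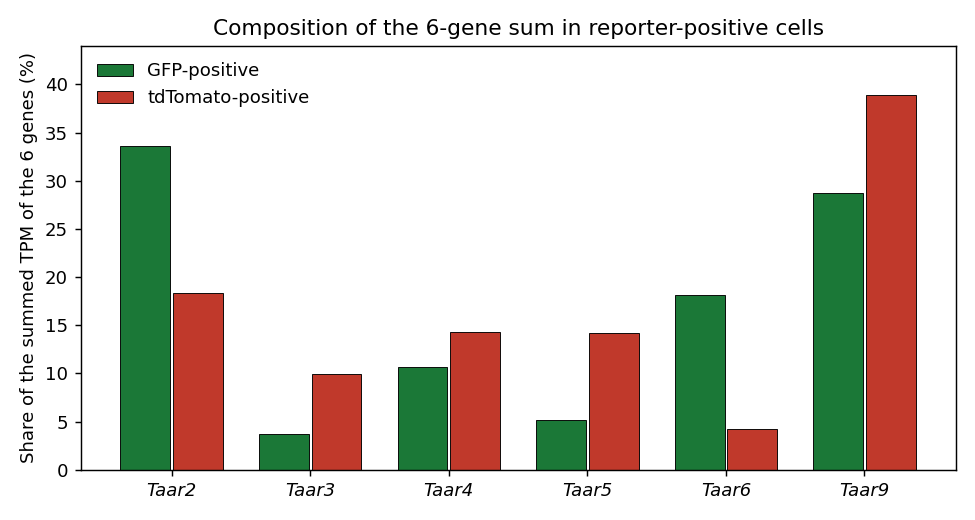
Share of each gene in the summed TPM of the 6 genes, in percent, in GFP-positive cells (green) and tdTomato-positive cells (red), 1 library each. *Taar2* and *Taar6* take larger shares in GFP-positive cells (33.6% and 18.2%) than in tdTomato-positive cells (18.4% and 4.26%), and the other 4 genes take smaller ones.

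Compared gene by gene between the reporter-positive libraries, the level in tdTomato-positive cells was 25.2 times that in GFP-positive cells for *Taar5*, 25.0 times for *Taar3*, 12.6 times for *Taar9*, and 12.5 times for *Taar4*. The ratio was 5.08 for *Taar2* and 2.17 for *Taar6*. All 6 ratios were above 1, but mature OSN markers were also more abundant in tdTomato-positive cells, with a median ratio of 4.18 over the 12 genes and a lowest ratio of 3.23. *Taar6* was the 1 member with a ratio below the lowest of these markers.

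*Omp*, which encodes olfactory marker protein of mature OSNs, had levels of 1108 TPM in GFP-positive and 4427 TPM in tdTomato-positive cells and served as a second yardstick. Relative to *Omp*, the 6-gene sum was 25.6% in the GFP-positive library and 59.4% in the tdTomato-positive library, 2.32 times as much. It was 0.404% in GFP-negative and 0.00259% in tdTomato-negative cells. *Taar6* was 4.65% of *Omp* in GFP-positive and 2.53% in tdTomato-positive cells, the 1 member with the lower value in tdTomato-positive cells. *Taar2* was 8.60% and 10.9%, and *Taar9* was 7.35% and 23.1%. *Omp* is also transcribed in OSNs that express *OR* genes, so these ratios describe the libraries and not TAAR OSNs alone.

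The place of the members among all receptor genes was examined next, over 1139 genes (the 14 olfactory *Taar* genes and 1125 genes named *Olfr*). In tdTomato-positive cells *Taar9*, *Taar2*, *Taar4*, and *Taar5* were the 4 receptor genes with the highest TPM, *Taar3* was number 7, and *Taar6* was number 17. In GFP-positive cells *Taar2* was number 3, after *Taar7f* and *Taar7e*, and *Taar9*, *Taar6*, and *Taar4* were numbers 6, 7, and 9. *Taar5* was number 19 and *Taar3* number 35 there. In GFP-negative cells the highest member, *Taar2*, was number 445. The 6 genes held 30.0% of all receptor TPM in tdTomato-positive cells, 12.0% in GFP-positive cells, 0.209% in GFP-negative cells, and 0.00126% in tdTomato-negative cells.

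The reporter-negative libraries differed in the same genes. *Taar2*, *Taar3*, *Taar4*, and *Taar5* summed to 34.0 TPM in GFP-negative cells and were each listed at 0 in tdTomato-negative cells. The 5 *Taar7* genes, in contrast, summed to 47.4 TPM in GFP-negative and 60.6 TPM in tdTomato-negative cells. Among them *Taar7b* had the pattern of the members, at 9.17 TPM in GFP-negative cells and listed at 0 in tdTomato-negative cells. The 3 *Taar8* genes were listed at 0 in both libraries. The 6 members thus made up 45.0% of the TPM of the 14 olfactory *Taar* genes in GFP-negative cells but 0.431% in tdTomato-negative cells.

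In reporter-positive cells the 6 members held 35.3% of the olfactory *Taar* TPM in the enhancer 1 line and 75.7% in the enhancer 2 line. The *Taar7* sum was 459.7 TPM in GFP-positive and 610.8 TPM in tdTomato-positive cells, a ratio of 1.33, and the *Taar8* sum was 60.7 and 235.3 TPM, a ratio of 3.88. The ratios of single *Taar7* genes ranged from 0.402 (*Taar7a*) to 2.67 (*Taar7e*), those of single *Taar8* genes from 1.96 (*Taar8b*) to 18.4 (*Taar8c*), and those of the 6 members from 2.17 to 25.2. The ratios of the members thus overlapped those of both groups. Values of single *Taar7* and *Taar8* genes depend on how shared reads were assigned. *Taar1*, which is not an olfactory receptor gene, was listed at 0 in all 4 libraries.

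Position relative to the endogenous enhancers was then set beside the levels. These distances describe the native cluster, and the insertion sites of the reporter transgenes are not given in the sources used here. *Taar2* starts 7.38 kb from enhancer 1, the nearest member, and had the highest level in GFP-positive cells. *Taar3* starts 18.4 kb, *Taar4* 29.3 kb, *Taar5* 39.5 kb, and *Taar6* 54.5 kb from enhancer 1, and *Taar9*, at 178.3 kb, had the second highest level. Spearman's rho between distance from enhancer 1 and TPM in GFP-positive cells was 0.09 over the 6 genes, given as a description.

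*Taar6* starts 1.85 kb from enhancer 2, the shortest distance of any member, and had the lowest level in tdTomato-positive cells. *Taar5* starts 16.8 kb, *Taar4* 27.0 kb, *Taar3* 37.9 kb, *Taar2* 48.9 kb, and *Taar9* 121.2 kb from enhancer 2, and *Taar9* had the highest level. Spearman's rho between distance from enhancer 2 and TPM in tdTomato-positive cells was 0.83 over these 6 genes and 0.21 over the 14 olfactory *Taar* genes. The genes share 1 library and 1 cluster, and 6 points carry little information on an order.

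**Figure D4:**
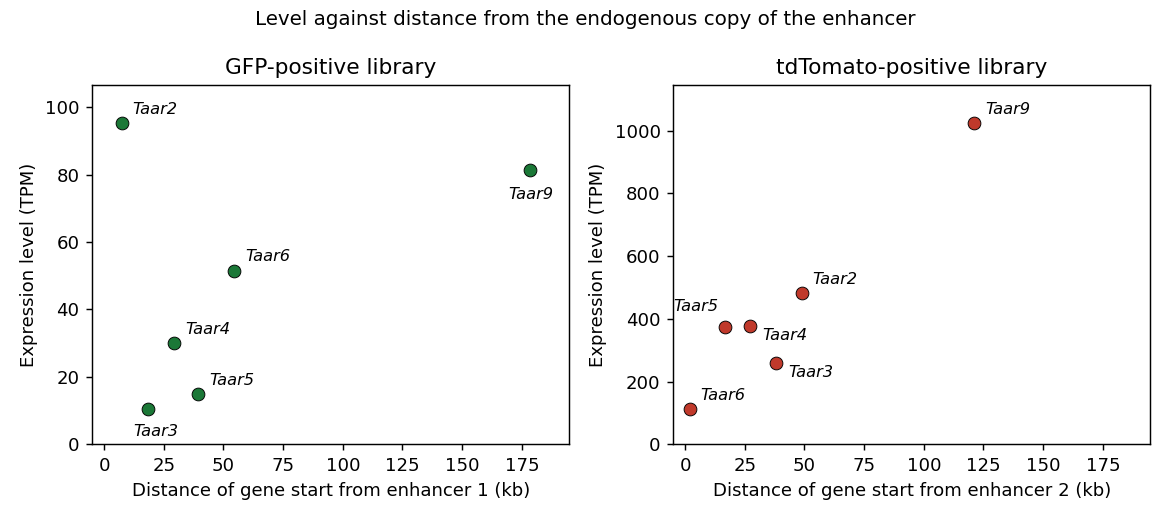
Level (TPM) of the 6 genes in the GFP-positive library against the distance of the gene start from endogenous enhancer 1 in kb (left), and in the tdTomato-positive library against the distance from endogenous enhancer 2 (right), 1 point per gene. *Taar2* is nearest to enhancer 1 and highest at 95.2 TPM, and *Taar6* is nearest to enhancer 2 and lowest at 112.0 TPM.

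Genes that flank the cluster were examined for comparison. *Stx7*, which encodes a syntaxin of endosomes and starts 39.8 kb beyond *Taar9*, was 209.4, 74.9, 160.3, and 126.6 TPM in GFP-negative, GFP-positive, tdTomato-negative, and tdTomato-positive cells. *Vnn1*, a pantetheinase gene 15.0 kb before *Taar1*, did not exceed 4.18 TPM. Of the 3 nearest protein-coding genes in the table on each side (*Vnn1*, *Vnn3*, and *Slc18b1*, and *Stx7*, *Moxd1*, and *Enpp1*), only *Slc18b1* was 2-fold or more higher with the reporter in both lines, with differences of 1.13 and 1.59. The highest difference of a neighbour in the enhancer 1 line was 2.50 (*Vnn3*), above those of *Taar3*, *Taar4*, and *Taar5*, so neighbours and members overlapped there. The highest in the enhancer 2 line was 2.29 (*Vnn1*), below the lowest member at 6.73, and *Vnn3* was at -2.98 in that line.

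The sequence directly before the genes was searched for short motifs in the RefSeq windows (GRCm38.p6) of 250 bases before each gene's start. Windows were matched for 5 of the 6 genes, and *Taar4* was not matched. The *Taar2* window ends directly before its start codon, so it may hold untranslated sequence or intron and not the promoter. Windows of genes with annotated untranslated exons lie elsewhere, so the shares below may compare unlike regions. On either strand, TAATTA, a core of homeodomain sites, was in none of the 5 windows and in 4.90% of 27025 windows, 1 per gene symbol. The looser TAATNA, which includes TAATTA, was in 2 of the 5 windows and in 24.8% of all windows. It occurred in 1 place before *Taar2* and in 4 places before *Taar5*.

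CCCNNGGG, a core of EBF sites, was in none of the 5 windows and in 11.7% of all windows, and CCCNNGAG was in 1 of the 5 and in 20.5% of all. TATAAA was in 1 of the 5 and in 13.0% of all. Both single matches were in the window of *Taar2*, the member with the highest level in GFP-positive cells. They lie within 30 bases, shown with the 2 matches in capitals, in the order CCCNNGAG and TATAAA, starting 120 and 98 bases before the first base of the model.
*Taar2* upstream (chr10:23938451-23938480, GRCm38, plus strand): gCCCTTGAGaccaattgttaaatTATAAAg
Shares of this size are common among genes, and the matches are descriptions of these letters only.

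Genes with the most similar pattern over the 4 libraries were sought among the 12996 genes that reached 10 TPM in 1 or more libraries, *Taar* genes left out. Likeness was the Euclidean distance between centred log2(TPM + 1) values and the mean of the 6 members. The 5 nearest were *Uox*, *1600029I14Rik*, *Cdkl1*, *Ccdc42b*, and *Catip*, at distances from 0.94 to 1.42. *Uox*, which encodes urate oxidase, was at 1.73 and 33.8 TPM in GFP-negative and GFP-positive cells, respectively, and was listed at 0 in tdTomato-negative cells but at 188.2 TPM in tdTomato-positive cells. The members themselves were at distances from 0.74 (*Taar4*) to 3.17 (*Taar9*). A profile of 4 values cannot separate patterns finely.

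The genes that serve receptors in OSNs mostly had lower levels in reporter-positive cells, unlike the 6 *Taar* genes. Of 13 olfactory transduction genes, among them *Gnal*, *Adcy3*, and *Cnga2*, 12 were at least 2-fold lower in GFP-positive cells (against 40.5% of all 17963 genes) and 4 in tdTomato-positive cells (against 21.9% of all 16752 genes), and none was 2-fold higher in either. Of 9 genes of receptor enhancers and receptor choice, 8 were at least 2-fold lower in the GFP-positive library and 3 in the tdTomato-positive library, against the same 40.5% and 21.9%. *Lhx2*, which encodes a homeodomain protein of receptor enhancers, was 416.3, 67.5, 370.9, and 202.8 TPM in GFP-negative, GFP-positive, tdTomato-negative, and tdTomato-positive cells. *Ebf1* was 183.7, 20.8, 198.2, and 86.8 TPM in the same order. Of 5 receptor trafficking genes, 4 were at least 2-fold lower in the first line and 2 in the second, again against 40.5% and 21.9%. In the second line 1 was 2-fold higher, against 16.2% of all genes.

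Zonal markers were compared as well. *Acsm4*, a marker of the dorsal zone where most TAAR OSNs lie, was 343.5, 237.6, 311.1, and 351.2 TPM in GFP-negative, GFP-positive, tdTomato-negative, and tdTomato-positive cells. *Nqo1*, the other dorsal marker, was 1308, 225.8, 949.4, and 300.8 TPM. *Ncam2* and *Nrp2*, markers of the ventral zone, had lower levels in reporter-positive cells of both lines.

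Markers of other cell types in the MOE moved with the same contrasts. Among all genes of the enhancer 1 line, 12.8% were at least 2-fold higher and 40.5% at least 2-fold lower with the reporter. The shares were 16.2% and 21.9% in the enhancer 2 line. All 12 mature OSN markers, present in every library, were at least 2-fold lower in the GFP-positive library and 6 of 12 in the tdTomato-positive one, and their summed level was 27841, 3065, 28641, and 12861 TPM in GFP-negative, GFP-positive, tdTomato-negative, and tdTomato-positive cells. The level of all 6 Bowman gland markers was at least 2-fold higher in the enhancer 1 line and that of 4 of 6 in the enhancer 2 line, with sums of 1821, 73697, 2566, and 1975 TPM, so that the sum was lower in tdTomato-positive cells. Sustentacular cell markers were at least 2-fold higher for 7 of 7 genes in GFP-positive cells and for 3 of 7 in tdTomato-positive cells, where 2 were lower, with sums of 1437, 13676, 2456, and 12931 TPM. Multiciliated cell markers were at least 2-fold higher for 6 of 8 genes in GFP-positive and 7 of 8 in tdTomato-positive cells, with sums of 894.6, 2844, 834.2, and 9029 TPM. Of 7 immune cell markers, 6 were at least 2-fold lower with the reporter in each line, and *Ptprc*, the pan-leukocyte marker, was 178.3, 3.14, 194.0, and 1.42 TPM. The remaining immune marker, *Lyz2*, was higher with the reporter, at 1581, 2043, 706.7, and 1707 TPM (differences 0.37 and 1.27). The part of these other cells in the levels of the 6 *Taar* genes was not tested.

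Immature OSN markers were at least 2-fold lower for 6 of 6 genes in the enhancer 1 line (against 40.5% of all genes) and 3 of 6 in the enhancer 2 line (against 21.9%). Horizontal basal cell markers had a median difference of 2.90 in the enhancer 1 line and -2.04 in the enhancer 2 line. The medians were -1.21 and -2.26 for globose basal cells and precursors, 1.72 and -0.55 for microvillar cells, and -1.13 and 1.08 for olfactory ensheathing cells. Ensheathing markers were mixed, and *Sox10* went against their median in both lines (2.30 and -1.17). Of 5 erythroid markers, 4 were at 0 in all libraries.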

How the data were processed

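The authors sorted cells from the MOE, and per the labels the RNA was extracted with a FastPure kit and the libraries were made with a VAHTS V6 kit. The submitters' processing notes name Trimmomatic 0.36, Salmon 1.4.0, and mm10, whereas the methods describe Smart-seq2, Hisat2, and Cufflinks for sorted cells in general. The authors deposited TPM values for 24421 genes by symbol. The gene annotation and any filter are not given in the sources used here.

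TPM values were used as deposited, with no filter and no test, because each of the 4 groups has 1 library. Differences of single genes are on the log2(TPM + 1) scale (pseudocount 1), which understates changes of low genes, and sums were compared as log2 ratios. Only the single-gene difference and the count past 2-fold were tested on simulated data. Enhancer positions (chromosome 10, mm10) are those of the transgene fragments, 23930200 to 23931190 for enhancer 1 and 23987501 to 23988362 for enhancer 2, and distances run from the nearest fragment end to the start codon. Coding sequences were aligned with MAFFT 7.526. Python 3.11.15, NumPy 2.4.6, pandas 2.3.3, SciPy 1.17.1, and Matplotlib 3.10.9 were used.

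Named genes were the 6 members, the other *Taar* genes by group, the 3 nearest protein-coding genes in the table on each side of the cluster, genes of 16 marker lists, and the 5 genes of most similar profile. Not every listed gene is reported here. The members and lists were chosen with earlier results of these data known. Alternatives were 3 scalings of the libraries, pseudocounts of 0.1 and 10, a fold minimum of 4, a minimum of 5 TPM, other gene sets, and subtraction of the reporter-negative level.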

Additional observations from a re-analysis of the deposited data

Results flagged for a closer look

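Some values outside the 6 *Taar* genes had opposite directions in the lines, each with 1 library per group, so the difference between lines was not tested. *Vnn3*, a neighbour of the *Taar* cluster, had 5.24 TPM in GFP-negative cells, 34.4 TPM in GFP-positive cells (difference 2.50 in log2(TPM + 1)), and 6.92 TPM in tdTomato-negative cells, while tdTomato-positive cells listed it at 0 (difference -2.98). *Moxd1*, on the other side of the cluster, was 9.30 and 28.4 TPM in the first line (difference 1.51) and 47.8 and 24.2 TPM in the second (difference -0.95). The median difference of horizontal basal cell markers was 2.90 in the enhancer 1 line and -2.04 in the enhancer 2 line. Medians were 1.72 and -0.55 for microvillar cell markers and -1.13 and 1.08 for olfactory ensheathing cell markers. Ensheathing markers were mixed, with 1 of 5 at least 2-fold higher and 3 lower in the enhancer 1 line. In the enhancer 2 line 3 were higher and 1 lower. *Sox10* went against the median in both lines (2.30 and -1.17), and *S100b* and *Npy* were listed at 0 in some libraries. None of the 6 *Taar* genes had opposite directions in the lines.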

How the results depend on the processing

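Values that answer a comparison stayed within 1.5 times of the reported one in 31 of 38 alternatives, and none reversed. The log2 ratio of the 6-gene sum in the enhancer 1 line, 2.87, was 3.76 with median-ratio scaling and 5.95 with scaling to mature OSN markers. In the enhancer 2 line, 13.29, it was 14.31 with scaling to mature OSN markers and 14.57 without *Taar9*, which removes most of the 0.262 TPM of the denominator. A fold minimum of 4 left 3 of 6 genes in the enhancer 1 line. With all 14 olfactory *Taar* genes in the denominator, the shares in GFP-positive cells were 10.1% for *Taar9* and 16.9% for *Taar2*, *Taar3*, and *Taar4*, lower by construction. Differences of single genes were positive in 60 of 60 alternatives and moved by over 1.5 times in 29. Without counts, depth cannot limit any statement further. No paired analysis was possible because the groups compared share fewer than 2 replicate numbers. A contrast with the lines as pairs, which would treat both enhancers as 1 condition, was not run. No library could be left out, since a group holds 1.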
